A study of Homo sapiens with 58 samples.

Results

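The 5 FOXC and FOXD forkhead genes FOXC1, FOXC2, FOXD1, FOXD2 and FOXD3 were taken by gene symbol from 19084 genes. RNA was sequenced from H1 cells, a wild-type line of human embryonic stem cells, and from cells made from it. FOXD4 and its near-identical copies were not among the 5, and 44 other forkhead genes in the same tables serve as a comparison. The study followed H1 cells through mesendoderm and presomitic mesoderm (PSM) towards somite cells, and its title is about synchronized oscillation of HES7. A daily series holds 3 libraries on each of 4 days, and a PSM course samples 23 times, 30 min apart and ending at 690 min, with 2 libraries per time. They make 12 and 46 libraries, 58 in all.

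Day0 cells were undifferentiated and kept in E8 medium. By Day1 the cells had spent a day in E8 with 100 ng/mL activin A and 3 µM CHIR99021, an inhibitor of the kinase GSK3 that activates Wnt signalling. Day2 followed a further day in E6 with 3 µM CHIR99021, 100 ng/mL FGF2, 100 ng/mL NOGGIN (a BMP antagonist) and 2 µM A83-01 (an inhibitor of activin and TGF-beta receptors). Day3 cells had then been given somite medium, which kept A83-01 at 2 µM and NOGGIN at 100 ng/mL in E6 and replaced the rest with 1 µM PD0325901 (a MEK inhibitor) and 2.5 µM IWR1 (a Wnt inhibitor). The medium and the zero point of the 30 to 690 min course are not given in the labels. All libraries carry the same wild-type genotype and come from 1 cell line, and the labels do not say that replicates were separate cultures, so a p-value here covers no more than the spread among libraries, which may be technical.

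Forkhead genes encode transcription factors that bind DNA through a winged-helix domain. In mouse embryos Foxc1 and Foxc2 are expressed in paraxial mesoderm and are together needed for the formation of segmented somites. In people, mutations of FOXC1 cause Axenfeld-Rieger syndrome of the eye and mutations of FOXC2 cause lymphoedema-distichiasis. Foxd1 marks the stromal progenitors of the mouse kidney, and mouse Foxd3 acts in the pluripotent epiblast and later in the neural crest. FOXD2 belongs to the same subfamily as FOXD1 and FOXD3 and is less well studied.

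Each of the 5 genes is a single-exon gene in the GENCODE annotation. The 250 bases before the annotated start, from RefSeq on GRCh38.p14, are shown for the 4 genes that matched, FOXC1, FOXD1, FOXD2 and FOXD3, so that the bases before genes with different courses can be compared. Sequences run 5′ to 3′ on the gene's own strand, and capitals mark CG dinucleotides.
FOXC1, chr6:1609665-1609914, plus strand: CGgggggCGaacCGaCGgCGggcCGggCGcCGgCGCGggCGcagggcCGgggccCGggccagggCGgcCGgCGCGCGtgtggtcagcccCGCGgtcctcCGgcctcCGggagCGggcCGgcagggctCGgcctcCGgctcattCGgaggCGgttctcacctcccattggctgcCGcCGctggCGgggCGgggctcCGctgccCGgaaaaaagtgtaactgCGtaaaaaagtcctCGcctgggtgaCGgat
FOXD1, chr5:73448778-73449027, minus strand: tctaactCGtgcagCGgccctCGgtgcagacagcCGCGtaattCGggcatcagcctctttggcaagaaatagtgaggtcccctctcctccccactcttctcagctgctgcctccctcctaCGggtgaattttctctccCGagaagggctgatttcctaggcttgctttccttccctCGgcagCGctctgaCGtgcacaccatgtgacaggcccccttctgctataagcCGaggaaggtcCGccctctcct
FOXD2, chr1:47437794-47438043, plus strand: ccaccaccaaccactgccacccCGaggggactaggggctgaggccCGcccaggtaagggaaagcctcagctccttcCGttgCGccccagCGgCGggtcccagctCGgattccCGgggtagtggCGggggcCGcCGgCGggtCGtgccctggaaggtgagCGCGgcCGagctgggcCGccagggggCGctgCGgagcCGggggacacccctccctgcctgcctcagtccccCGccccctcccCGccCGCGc
FOXD3, chr1:63322317-63322566, plus strand: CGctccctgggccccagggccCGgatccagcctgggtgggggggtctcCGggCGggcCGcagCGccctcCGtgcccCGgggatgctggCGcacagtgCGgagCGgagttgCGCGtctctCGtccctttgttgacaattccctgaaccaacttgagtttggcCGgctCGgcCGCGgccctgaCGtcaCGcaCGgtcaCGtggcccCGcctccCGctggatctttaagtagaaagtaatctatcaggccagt

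The FOXC1 stretch holds 37 CG dinucleotides, a number reached by 4.0% of 35116 promoters of the same length, and its GC content is 76.8%. FOXD2 and FOXD3 hold 24 CG dinucleotides each, reached by 23.7% of promoters, with GC contents of 76.8% and 67.6%. FOXD1, with 13 CG dinucleotides and a GC content of 58.8%, lies close to the medians of all promoters, which are 11 and 58.0%. The letters TGTTTAC (a forkhead motif, present in 2.98% of promoters), TATAAA (10.7%), TGGGAA (20.8%), CTTTGA (11.2%) and TCACAC (9.9%) were searched on both strands, and none of the 4 stretches holds any of them. The letters CCAAT, present in 32.0% of promoters, were found once, on the opposite strand of FOXC1, 86 bases before its start. A match or its lack describes the letters of this window and does not show binding.

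Levels are given as CPM, the expected count divided by the library's total, and levels of different genes are compared as TPM, which is per length. Daily libraries held 3.16 to 7.81 M expected counts and course libraries 2.53 to 8.96 M. A gene at 0 may have had as many as 3 counts, a floor of 0.384 to 0.949 CPM per daily library and of 0.335 to 1.18 CPM per course library. The labelled cell types were checked on their markers. POU5F1, a core pluripotency factor, averaged 54.5 CPM at Day3 and 1074 CPM at Day0, and the PSM factor TBX6 was at 0 in all Day0 libraries, at 13.4 CPM at Day2 and at 64.1 CPM at 30 to 90 min. The somite factors MEOX1 and TCF15 averaged 182 and 329 CPM at Day3 against 0.106 and 2.17 CPM at Day2. The segment border genes RIPPLY1, RIPPLY2, MESP1 and MESP2 were at 0 in all Day2 libraries. One library stood apart and bears on FOXC1, FOXD1 and FOXD2, since it held 341 of the 347 FOXC1, 16 of the 17 FOXD1 and all 3 FOXD2 counts of Day0. Day0 replicate 1 had 83.5 CPM of ZIC1 and 46.5 CPM of LEFTY1, against at most 2.58 and 4.42 CPM in the other Day0 libraries. Values without it stand beside the comparisons with Day0 that it moves.

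**Figure D1:**
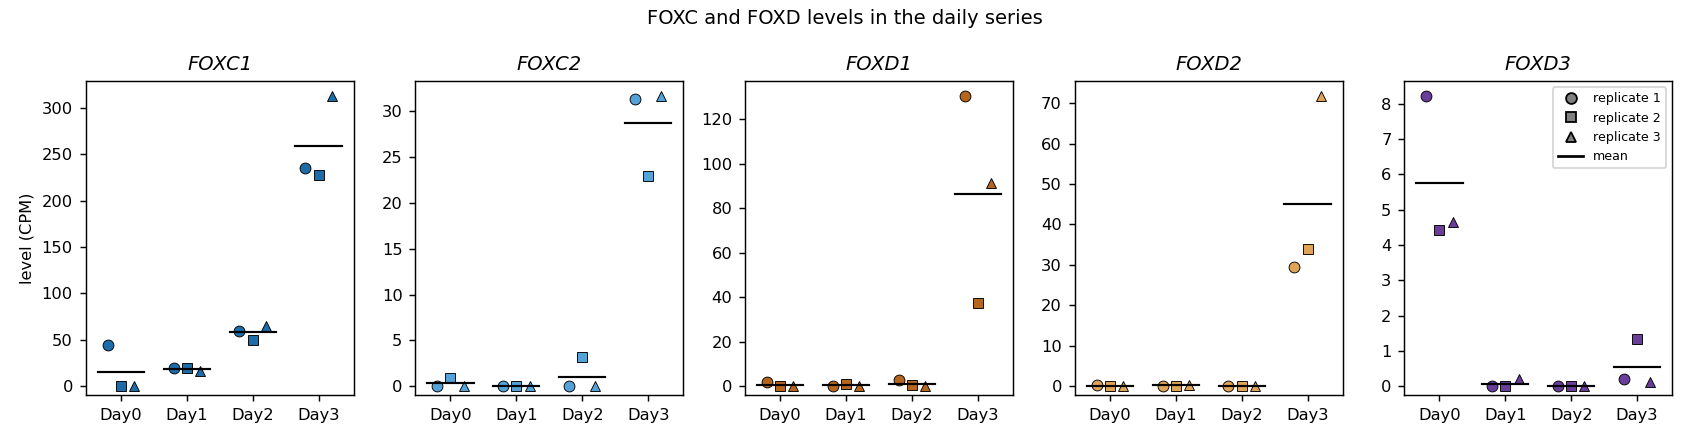
Level of each gene in every daily library (CPM, 1 point per library, with the mean of the 3 libraries of a day), from Day0 to Day3. FOXC1 is the only one of the 5 with counts in all 12 daily libraries, FOXC2, FOXD1 and FOXD2 stand clear of the earlier days at Day3, and FOXD3 is highest at Day0.

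The first question was how the 5 genes differ between the daily stages. All 5 changed over the 4 days (edgeR quasi-likelihood F test with Benjamini-Hochberg adjustment over 12765 genes, adjusted p from 5.55e-07 for FOXD2 to 0.00306 for FOXD3), as did 43.6% of all genes tested. FOXC2, FOXD1 and FOXD2 passed the filter on low counts through Day3 alone, and FOXD3 through Day0 alone. For them a change among the days was thus nearly given by the filter. FOXC1 had 44.6, 0.353 and 0.688 CPM at Day0, 19.97, 19.2 and 16.4 CPM at Day1, 59.3, 49.7 and 65.3 CPM at Day2, and 235, 228 and 313 CPM at Day3. Apart from Day0 replicate 1, each day lay above the one before with no overlap. The means were 15.2 ± 25.4, 18.5 ± 1.87, 58.1 ± 7.89 and 259 ± 47.4 CPM for Day0, Day1, Day2 and Day3 (SD, n = 3 each).

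FOXC2, the close relative of FOXC1, was nearly silent before Day3. It was at 0 in 7 of the 12 daily libraries, including every Day1 library. Day0 held 5 counts and Day2 held 10, each in replicate 2 alone, at 0.883 and 3.16 CPM. Day3 had 31.4, 22.98 and 31.7 CPM, above every earlier library.

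FOXD1 and FOXD2 were also low before Day3, with a wider spread at Day3. FOXD1 was at 0 in only 2 of the daily libraries and FOXD2 in 6. FOXD1 had 2.09, 0.177 and 0 CPM at Day0, 0.230, 1.02 and 0.200 CPM at Day1, 2.57, 0.316 and 0 CPM at Day2, and 131, 37.2 and 91.1 CPM at Day3. FOXD2 had 3 counts over the Day0 libraries, 3 over the Day1 libraries and none at Day2, and 29.4, 34.0 and 71.9 CPM at Day3. The Day3 libraries do not keep 1 order over both genes, since replicate 1 was highest for FOXD1 and replicate 3 for FOXD2. FOXD3 ran the other way, with 8.23, 4.41 and 4.64 CPM at Day0, 1 count over the Day1 libraries, none at Day2 and 8 counts over the Day3 libraries, where replicate 2 had the highest level at 1.33 CPM.

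Between Day3 and Day2, FOXC2, FOXD1 and FOXD2 rose, 3 of the 5 genes, while 9.03% of all genes tested were called higher and 4.03% lower. A gene was called at an adjusted p under 0.05 with a log2 fold change of 1 or more in either direction. FOXC2, FOXD1 and FOXD2 passed the filter on low counts through their Day3 libraries, and FOXD3 through those of Day0. A call in the opposite direction was therefore hardly possible for these genes. FOXC2 rose by 4.55 ± 1.13 log2 units (SE, edgeR quasi-likelihood test with Benjamini-Hochberg adjustment, adjusted p = 0.0111), and FOXD1 by 6.20 ± 0.91 (adjusted p = 2.60e-04). FOXD2, with no count at Day2, was at least 169-fold higher at Day3 by a floor of 3 counts over the group (edgeR with Benjamini-Hochberg adjustment, adjusted p = 4.38e-05). The FOXC2 call was lost in DESeq2 (adjusted p = 0.242 with Benjamini-Hochberg adjustment), and without Day2 replicate 2, which held all its Day2 counts, it was called and was at least 69.6-fold higher by the floor. Without the other Day2 libraries it was 3.93 (replicate 1) and 3.90 log2 units (replicate 3), and the FOXD1 difference was 8.73 log2 units without Day2 replicate 1 and 5.55 without replicate 3, all called.

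FOXC1 differed between Day3 and Day2 by 1.92 ± 0.78 log2 units and did not pass in edgeR (adjusted p = 0.0882 with Benjamini-Hochberg adjustment), although its 3 Day3 libraries all lay above its 3 Day2 libraries. All days share 1 estimate of spread in this fit, and Day0 replicate 1 enters it. Without that library the difference was 1.92 log2 units with an adjusted p of 6.30e-06 in edgeR, and it also passed without either of the other Day0 libraries (0.0355 and 0.0447) and with only the 6 libraries of the 2 days (2.19e-04). The difference passed without the filter on low counts as well (edgeR, adjusted p = 0.0262). It was not called in 9 of the 12 refits without 1 library. Nor was it called in 4 of 6 other settings, among them the replicate block (edgeR, adjusted p = 0.0639). FOXD3 had 8 counts at Day3 and none at Day2 and did not pass (edgeR, adjusted p = 0.153).

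The somite and dermomyotome markers, a list of 15 genes that holds MEOX1, TCF15 and PAX3, moved beside these genes at Day3. Of the 13 that were tested, 8 rose and 1 fell between Day3 and Day2, with a median log2 fold change of 2.39 against 0.08 over all genes tested, and their summed level was 1713 to 2117 CPM at Day3 and 689 to 960 CPM at Day2. Markers of other tissues in which these genes are known were also measured. The neural crest list summed to 226 to 472 CPM at Day3 and 118 to 147 CPM at Day2, with 2 of 10 tested genes higher and 1 lower, while SOX10, its defining factor, had about 1 count over the Day3 libraries and DLX5 was at 0. Of its 13 genes, 12 had counts on each of the days. The intermediate mesoderm and kidney list summed to 510 to 554 CPM at Day3 and 260 to 341 CPM at Day2, with 1 of 7 higher and 1 lower, and the kidney factor WT1 had 1 count at Day3. All 11 listed genes had counts at Day3, while OSR1, HOXD11 and TCF21 had none at Day2. The sclerotome list summed to 513 to 813 CPM at Day3 and 171 to 211 CPM at Day2, with 1 of 6 tested genes higher and 1 lower and PAX1 at 0 on both days. PAX9 and NKX3-2, at 0 at Day2, had counts at Day3. The neural tube list summed to 2041 to 2563 CPM at Day3 and 836 to 1388 CPM at Day2, with 1 of 8 higher and 1 lower. OLIG2 was the only one of its 10 genes at 0 on both days. The endothelium and blood list went down. It summed to 41.8 to 70.3 CPM at Day3 and 60.5 to 154 CPM at Day2, with 1 of 6 tested genes higher and 3 lower. Of its genes, TAL1 was at 0 at Day3, and ETV2, PECAM1 and CDH5 were at 0 at Day2. The lists share genes, so their sums are not separate measures. SOX9 and TWIST1 are in the sclerotome and neural crest lists, and PAX7 is in the somite and neural crest lists. The part of these cell types in the levels of the forkhead genes was not tested, and in bulk RNA fewer cells of a type and less RNA per cell cannot be told apart.

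At the first step, Day1 against Day0, FOXD3 fell, the 1 call among the 5 genes, while 2.72% of all genes were called higher and 2.46% lower. Its 1 count at Day1 stood against 115 counts at Day0, and the Day0 level was 92.0 times the Day1 level (exact 95% counting interval 16.2 to 3664). The edgeR log2 fold change was -5.99 ± 1.52 (adjusted p = 0.0256 with Benjamini-Hochberg adjustment), and the call was lost when any 1 of the 6 libraries of the 2 days was left out. Between Day2 and Day0, FOXD3 was at least 20.6-fold lower at Day2, by the floor of 3 counts over the group, and fell (edgeR, adjusted p = 0.00683 with Benjamini-Hochberg adjustment). There 8.3% of all genes were called higher and 11.4% lower, and FOXD3 was the 1 call among the 5, also without Day0 replicate 1 (adjusted p = 0.0271).

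FOXC1 was not called at either of these steps with all libraries in. The log2 difference of Day1 from Day0 was 0.26 (adjusted p = 0.908 in edgeR with Benjamini-Hochberg adjustment), and that of Day2 from Day0 was 2.05 (adjusted p = 0.0661). Without Day0 replicate 1 both were called, at 5.11 and 6.90 log2 units (edgeR, adjusted p = 3.28e-07 and 5.91e-09). Day2 from Day0 also passed without the filter on low counts, in limma and with the replicate number as a block.

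Between Day2 and Day1 none of the 5 genes was called in edgeR, while 3.58% of all genes were called higher and 8.16% lower. At an unadjusted p under 0.05 there were 2 of the 5, beside 4380 of all 12765 genes tested. They were FOXC1, which differed by 1.79 log2 units (adjusted p = 0.132 with Benjamini-Hochberg adjustment), and FOXC2, whose 10 Day2 counts in 1 library stood against none at Day1 (adjusted p = 0.0767). FOXC1 was called here without Day0 replicate 1 (2.68e-05), with only the 6 libraries of the 2 days, and, together with FOXC2, without the filter on low counts. FOXC2 was also called without Day2 replicate 1 or 3. DESeq2 gave no adjusted p for FOXC1 in any comparison of days and did not call FOXC2 here.

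Over the longer spans, 4 of the 5 genes rose at Day3, both against Day0, where 7.07% of all genes were called higher and 7.09% lower, and against Day1, where the shares were 7.13% and 6.64%. FOXC1 rose by 3.97 ± 0.86 log2 units against Day0 (edgeR with Benjamini-Hochberg adjustment, adjusted p = 0.00304) and by 8.82 without Day0 replicate 1. FOXC2 rose by 6.54 log2 units against Day0 (edgeR with Benjamini-Hochberg adjustment, adjusted p = 0.00166), and by 5.91 without Day0 replicate 1. Without Day0 replicate 2, which held all its Day0 counts, it was at least 132-fold higher, and at Day3 it was at least 150-fold above Day1, which had no count, by the floor of 3 counts over the group. FOXD1 rose by 6.58 log2 units against Day0 and by 7.24 against Day1. Without Day0 replicate 1, which left 1 count at Day0, FOXD1 rose by 9.52 against Day0, and without Day1 replicate 2 by 8.41 against Day1. FOXD2 at Day3 was 315 times its Day0 level (exact 95% counting interval 108 to 1532) and 252 times its Day1 level (86.0 to 1225), with 870 counts against 3 on either earlier day. Without Day0 replicate 1 Day0 had no FOXD2 count, and Day3 was at least 189-fold higher (edgeR with Benjamini-Hochberg adjustment, adjusted p = 2.50e-05). Without Day1 replicate 3 the ratio to Day1 was 509 (91.2 to 20140).

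FOXD3 differed at Day3 from Day0 by -3.47 log2 units without passing in edgeR (adjusted p = 0.0599 with Benjamini-Hochberg adjustment), and passed in DESeq2 (0.0324, Benjamini-Hochberg adjustment) and limma. The rise of FOXC2 against Day0 was lost in DESeq2 (adjusted p = 0.0759), and that of FOXC1 against Day1 in limma on log2(TPM + 0.1) (adjusted p = 0.0824).

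**Figure D2:**
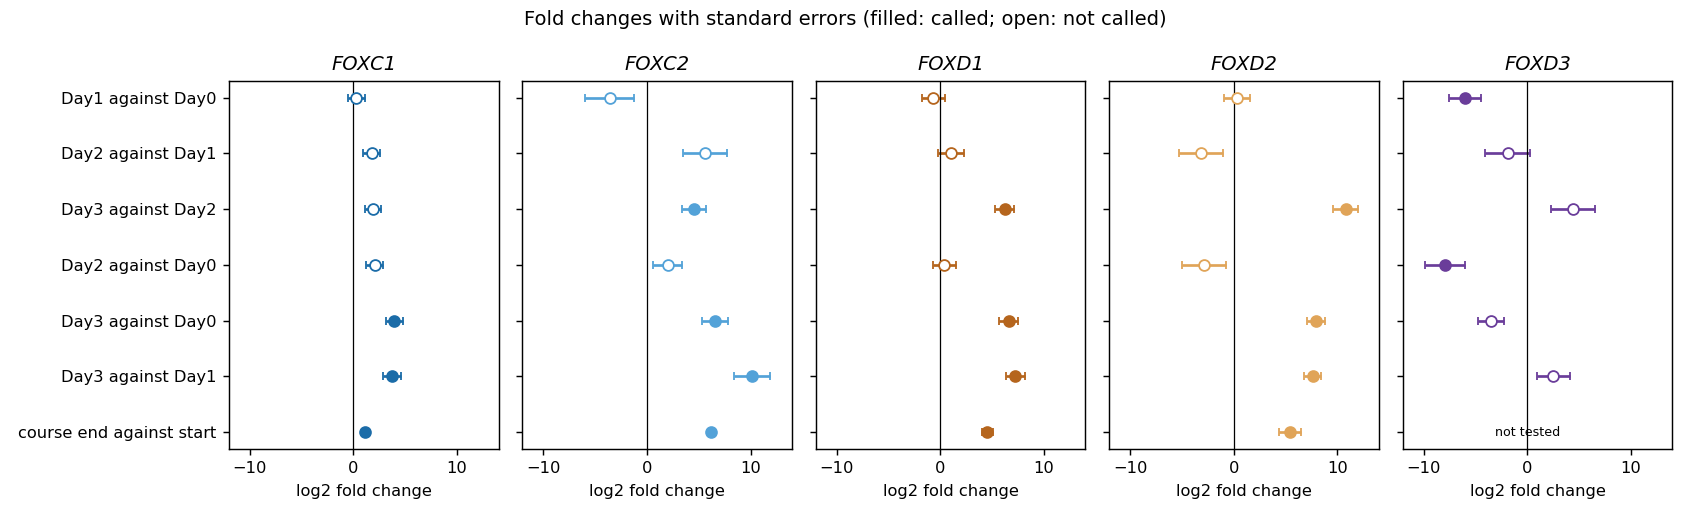
Log2 fold change of each gene with its SE in the comparisons between days and between the end and the start of the course (edgeR), the later group over the earlier one. Filled points passed the adjusted p of 0.05 and the log2 limit of 1, and fitted values against a group at 0 depend on the prior count.

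The course was compared first between its end, 630 to 690 min, and its start, 30 to 90 min, with 6 libraries each. FOXC1, FOXC2, FOXD1 and FOXD2 rose, all 4 of the genes that passed the filter on low counts, while 4.77% of the 13653 genes tested were called higher and 4.68% lower. FOXD3 did not pass the filter. FOXC2, FOXD1 and FOXD2 were low at 30 to 90 min and passed through later libraries, so a fall was hardly possible for them. Over the 23 time points the same 4 changed (edgeR quasi-likelihood F test with Benjamini-Hochberg adjustment, adjusted p from 6.67e-21 for FOXC2 to 0.00424 for FOXD2), as did 28.9% of all genes tested. For FOXC2, FOXD1 and FOXD2 the filter made some change likely in this test too.

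FOXC2 had the largest log2 fold change of the 4 in this contrast. Its 6 libraries at 630 to 690 min lay between 38.8 and 61.6 CPM with a median of 51.2, against 0.156 to 1.45 CPM at 30 to 90 min with a median of 0.647. The ranges lie far apart, and the log2 fold change was 6.19 ± 0.26, or 73.1-fold (SE, edgeR with Benjamini-Hochberg adjustment, adjusted p = 1.91e-24). FOXD1 lay between 18.4 and 29.9 CPM (median 27.8) at 630 to 690 min, against 0.260 to 1.58 CPM (median 1.16) at 30 to 90 min, again without overlap, and rose 23.3-fold (log2 4.54 ± 0.50, edgeR adjusted p = 4.50e-10).

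FOXD2 stayed low throughout but its groups did not overlap either. It had 3.796 to 9.04 CPM at 630 to 690 min, against at most 0.460 CPM at 30 to 90 min, and rose by 5.42 ± 1.11 log2 units (edgeR with Benjamini-Hochberg adjustment, adjusted p = 1.72e-04). No start library held more than 2 FOXD2 counts. The size therefore depends on the settings, and ran from 1.82 to 5.42 log2 units under the alternatives that kept all libraries of the contrast. FOXC1 had 395 to 626 CPM (median 518) at 630 to 690 min, against 157 to 366 CPM (median 228) at 30 to 90 min, and rose 2.19-fold (log2 1.13 ± 0.12, adjusted p = 7.56e-11). The lowest late FOXC1 library lay above the highest early one.

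FOXD3 was at 0 in 32 of the 46 course libraries and never passed 1.76 CPM. It had 19 counts over the 6 libraries at 630 to 690 min against 1 count over the 6 at 30 to 90 min, a ratio of 17.5 (exact 95% counting interval 2.78 to 728, which covers counting error only).

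**Figure D3:**
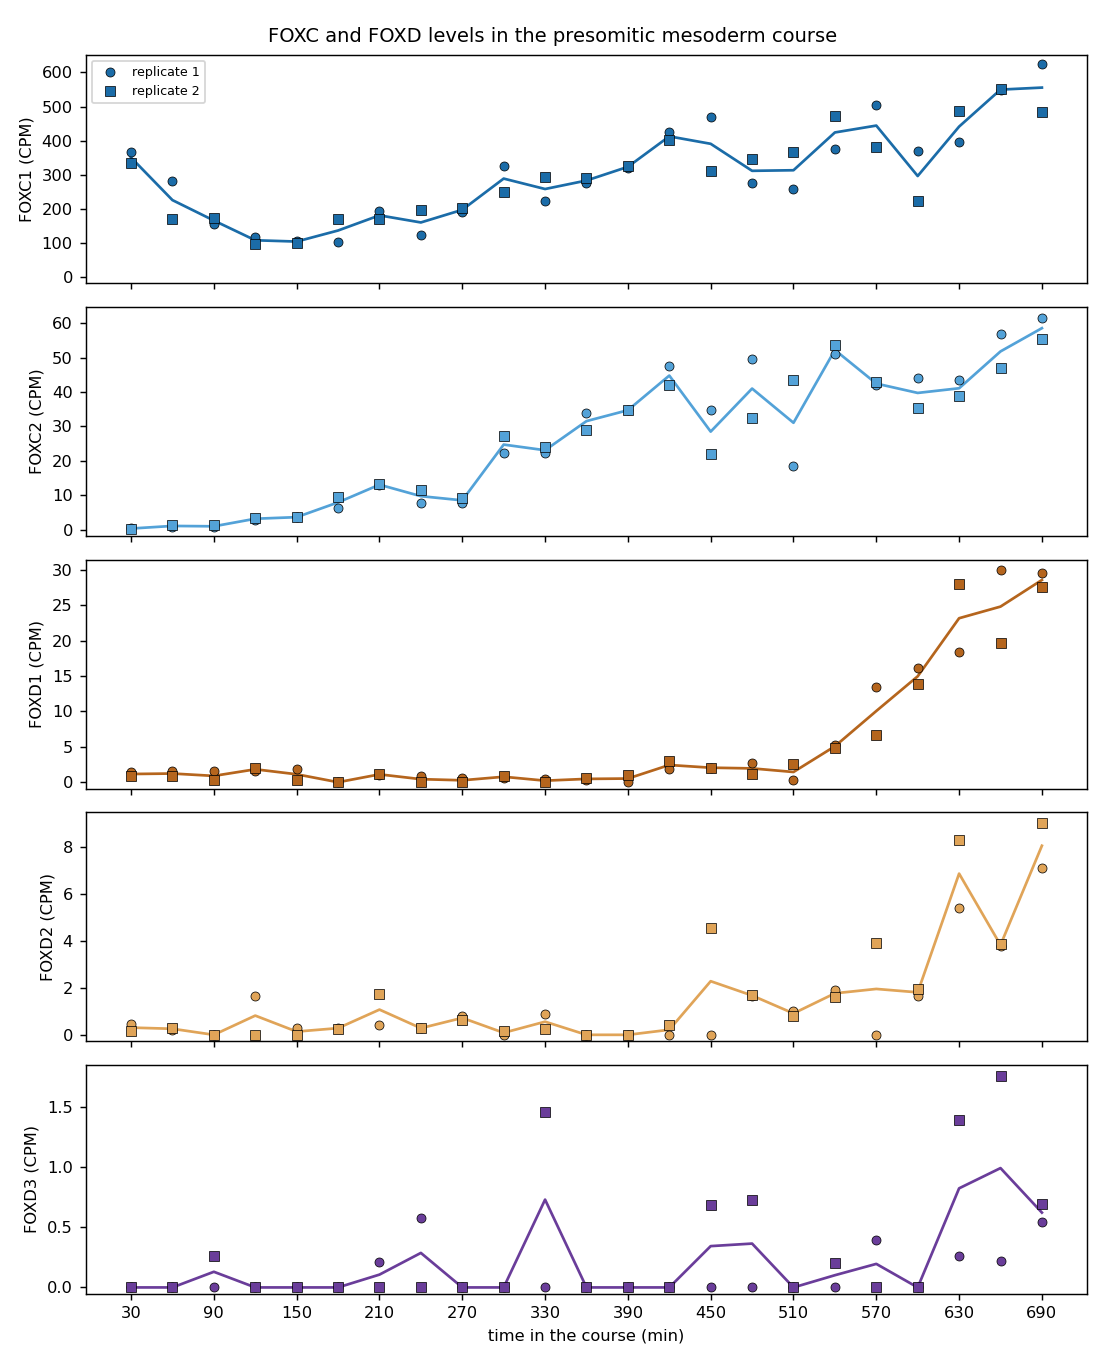
Level of each gene in every library of the course (CPM, 1 point per library, line through the mean of the 2 libraries at a time point) against time in min. FOXC1 dips to a mean of 104 CPM at 150 min before it climbs to 556 CPM at 690 min, FOXC2 lies above its starting level from 120 min on, and FOXD1 and FOXD2 are highest at the end.

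The genes rose above their starting levels at different times. The time was taken as the first from which every library lay above the highest of the 6 libraries at 30 to 90 min, a description chosen after the values were seen. FOXC2 did so from 120 min, FOXD1 from 540 min and FOXD2 from 600 min, while FOXC1, which began high and first fell, did so only from 630 min. Except for FOXC2 these times turn on single libraries. FOXD2 would do so from 480 min without 570 min replicate 1, which had no count, FOXD1 from 510 min without 510 min replicate 1, and FOXC1 from 540 min without 600 min replicate 2. The order of FOXD1 and FOXD2 is therefore not settled.

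FOXC2 averaged 0.777, 4.90, 10.4, 26.5, 39.8, 33.5, 44.8 and 50.5 CPM over the successive windows 30 to 90, 120 to 180, 210 to 270, 300 to 360, 390 to 420, 450 to 510, 540 to 600 and 630 to 690 min. The window at 390 to 420 min was thus closer to the last window than to the first. Over the same windows FOXD1 averaged 1.09, 0.982, 0.603, 0.485, 1.47, 1.82, 10.04 and 25.5 CPM, and it was at 0 in 6 of the 46 libraries. FOXD2 averaged 0.189, 0.414, 0.694, 0.216, 0.108, 1.63, 1.85 and 6.26 CPM and was at 0 in 12 libraries. Window means thus stayed under 2 CPM up to 510 min for FOXD1 and up to 600 min for FOXD2, and both genes had their highest mean at 690 min.

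FOXC1 did not climb steadily. It had 366 and 335 CPM at 30 min, 282 and 169 at 60 min, 157 and 174 at 90 min, 118 and 96.7 at 120 min, 107 and 101 at 150 min, and 102 and 170 CPM at 180 min. The highest levels of the first 3 hours were thus those at 30 min, and the window means ran on with 179, 276, 368, 338, 388 and 515 CPM from 210 to 270 min to the end. In a contrast chosen after these values were seen, FOXC1 averaged 116 ± 27.8 CPM at 120 to 180 min and 247 ± 92.2 CPM at 30 to 90 min (SD, n = 6 each), a log2 difference of -0.96 ± 0.12 (SE, edgeR with Benjamini-Hochberg adjustment, adjusted p = 1.38e-07). The difference is just under the log2 limit of 1 and was not called, and it was called without 60 min replicate 2, 120 min replicate 1 or 180 min replicate 2.

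FOXC2 rose in the same contrast, by 2.79 ± 0.33 log2 units (edgeR with Benjamini-Hochberg adjustment, adjusted p = 4.30e-08), the 1 call among the 4 tested, while 1.41% of all genes were called higher and 0.52% lower. Its 6 libraries at 120 to 180 min had 2.90 to 9.49 CPM, all above those at 30 to 90 min. The 2 FOXC genes therefore differed in direction over these hours. As TPM, FOXC1 was 56.5 to 1051 times FOXC2 at 30 to 90 min, 7.80 to 19.8 times at 120 to 180 min, 3.91 to 7.12 times at 300 to 360 min and 4.22 to 6.07 times at 630 to 690 min. At Day3 it was 3.62 to 4.80 times FOXC2.

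A linear trend over the course was positive for all 4 tested genes, with fitted changes of 1.56 (FOXC1), 4.77 (FOXC2), 5.68 (FOXD1) and 4.70 (FOXD2) log2 units from 30 to 690 min, while 5.78% of all genes were called with a positive and 6.34% with a negative trend. These sizes depend on the straight line, since the contrast of end and start gave 6.19 for FOXC2 and 4.54 for FOXD1, the opposite order. Through the filter, a negative trend was hardly possible for FOXC2, FOXD1 and FOXD2. A rhythm of 300 min beside a curved trend was called in edgeR for none of the 4 and for 0.132% of all genes. Of the 4, FOXC1 alone was under an unadjusted p of 0.05 (adjusted p = 0.301 with Benjamini-Hochberg adjustment). Over all 13653 genes tested, 1725 were under it. Neither limma, for the 4, nor DESeq2, which gave an adjusted p for FOXC1 and FOXC2 alone, made a call, whereas edgeR without the filter on low counts (adjusted p = 2.20e-04) and with a period of 330 min (0.0407) called FOXC1.

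**Figure D4:**
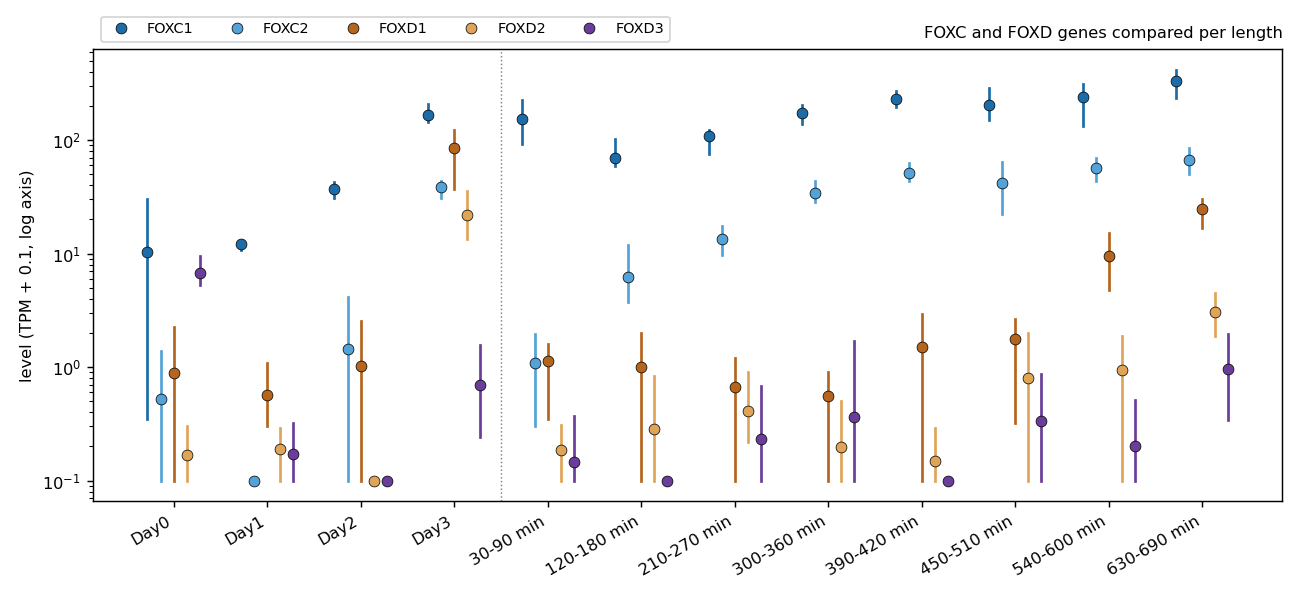
Levels of the 5 genes as TPM + 0.1 on a log axis, on each day and in each course window. Points are means and lines run from the lowest to the highest library. FOXC1 leads in each group from Day1 on, and the order of FOXC2 and FOXD1 at 630 to 690 min is opposite to the order of their means at Day3.

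Compared per length, FOXC1 had the highest level of the 5 from Day1 on. Its mean was 168 TPM at Day3, followed by FOXD1 with 84.4, FOXC2 with 38.3, FOXD2 with 21.7 and FOXD3 with 0.597 TPM. The range of FOXD1 overlapped that of FOXC2, and the range of FOXC2 that of FOXD2, although in each of the 3 libraries the genes kept this order. FOXC1 made up 53.6% of the summed TPM of the 5 genes at Day3 and 94.2% at Day2.

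At 630 to 690 min FOXC1 led with 329 TPM, followed by FOXC2 with 66.7, FOXD1 with 24.9, FOXD2 with 2.94 and FOXD3 with 0.862 TPM, and FOXC1 made up 77.5% of the sum, after 98.6% at 30 to 90 min. No neighbours in this order overlapped except FOXD2 and FOXD3. At Day0, Day1 and Day2 FOXC2, FOXD1 and FOXD2 had means of at most 1.34 TPM, and most neighbours in the order overlapped. At Day0 FOXD3 had a mean of 6.62 TPM and lay above FOXC1 in the 2 libraries other than replicate 1.

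The order of FOXC2 and FOXD1 differed between the end of the course and Day3. FOXD1 was 0.310 to 0.532 times FOXC2 in the 6 libraries at 630 to 690 min, against 3.07, 1.19 and 2.12 times in the 3 Day3 libraries. The ratio was chosen after the values were seen and is given with no test. The daily libraries and the course are separate sets, and whether they shared medium and clock time is not given, so set and stage cannot be told apart. Likewise, FOXC1 stood at 366 and 335 CPM in the first course libraries, and at 59.3, 49.7 and 65.3 CPM in the Day2 libraries, and TBX6, MSGN1 and HES7 averaged 64.1, 40.7 and 14.2 CPM at 30 to 90 min and 13.4, 29.3 and 0.954 CPM at Day2.

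Of the 44 other forkhead genes, 19 were tested in the daily series and 20 in the course. Between Day3 and Day2, 2 rose and none fell (edgeR), with a median log2 fold change of 0.34 against 0.08 over all genes tested. They were FOXL1, at 19.0 ± 6.98 CPM at Day3 and 0 at Day2 (SD, n = 3 each), and FOXP1, at 54.6 ± 6.85 CPM at Day3 and 17.9 ± 8.55 CPM at Day2. FOXL1 was at least 69.4-fold higher by the floor of 3 counts (adjusted p = 6.53e-04 with Benjamini-Hochberg adjustment). Between 630 to 690 and 30 to 90 min, 3 rose (FOXL1, FOXP1 and FOXI1) and 1 fell (FOXF2), with a median of -0.10 against -0.02 over all genes tested.

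The neighbours of the FOXC genes on their chromosomes include forkhead genes. FOXL1 lies directly beside FOXC2 on chromosome 16, and FOXF1 lies on its other side beyond MTHFSD, while FOXF2 lies beside FOXC1 on chromosome 6. FOXL1 had 31.0 ± 7.52 CPM at 630 to 690 min and 0.255 ± 0.320 CPM at 30 to 90 min (SD, n = 6 each), a rise of 7.73 log2 units (edgeR with Benjamini-Hochberg adjustment, adjusted p = 5.08e-20), beside the 6.19 of FOXC2. FOXF2 fell by 2.50 log2 units (adjusted p = 0.0497), and FOXF1 differed by -1.25 without passing (adjusted p = 0.458), although its linear trend over the course was negative and called (-2.58, adjusted p = 0.0161). Both were near the floor. FOXF2 had 0.690 to 5.18 CPM at 30 to 90 min and 0 to 1.76 CPM at 630 to 690 min, with overlap, and FOXF1 never passed 3.12 CPM in the course. Neither was called for any change over the 23 time points (edgeR with Benjamini-Hochberg adjustment, adjusted p = 0.142 for FOXF2 and 0.344 for FOXF1). FOXC2, FOXL1 and FOXC1 were thus higher at the end, while the fall of FOXF2, the neighbour of FOXC1, rested on few counts. FOXE3, beside FOXD2 on chromosome 1, had no count in the daily libraries. The antisense genes FOXC2-AS1 and FOXD3-AS1 overlap FOXC2 and FOXD3, and, as the strand of counting is not given, reads of a gene and its antisense partner cannot be told apart.

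**Figure D5:**
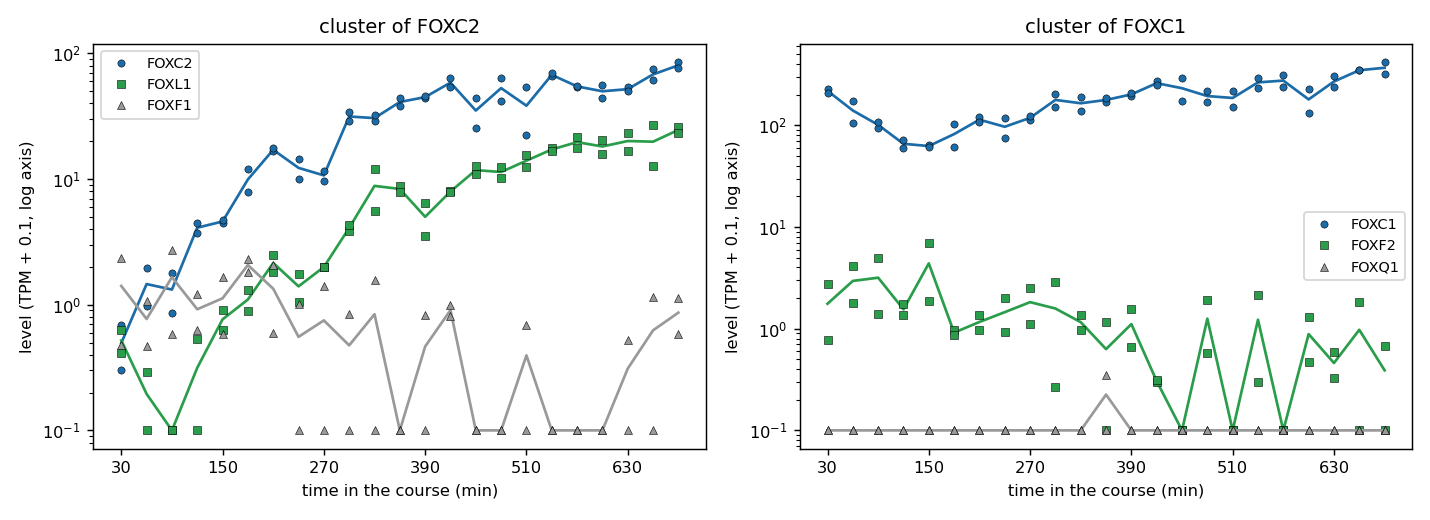
Levels (TPM + 0.1, log axis) of FOXC2 with its neighbours FOXL1 and FOXF1, and of FOXC1 with its neighbours FOXF2 and FOXQ1, against time in the course (min), 1 point per library with a line through the means. FOXL1 and FOXC2 both climb, FOXF1 and FOXF2 have negative trends at low levels, and FOXQ1 is at or near 0.

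Likeness to other genes was measured as the lower of Pearson's r over the 12 daily and over the 46 course libraries on log2 CPM, against 12548 genes. These libraries share stage, time and depth, so r is a description with no p. The genes most like FOXC2 were MEOX1 (0.935), OLFML2A (0.928), C10orf10 (0.927), XIRP1 (0.926) and FOXL1 (0.921). Those most like FOXC1 were H2AFY2 (0.818), CAPN2 (0.817), KIF26B (0.809), NCAM1 (0.797) and APLNR (0.789), and FOXC1 and FOXC2 were at 0.579 with each other. The daily r of FOXC1 includes Day0 replicate 1, the library that stood apart, and no value without it is given. For KIF26B, NCAM1, APLNR and FOXC2 the daily r was the lower one.

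FOXD1 was most like ANTXR2 (0.836), TRH (0.819), DMRT2 (0.813), ALCAM (0.809) and PDE4DIP (0.807). FOXD2 was most like FOXD1 itself (0.721), followed by TRH (0.717), ALCAM (0.711), PDE4DIP (0.709) and TMEFF1 (0.705). TRH, ALCAM and PDE4DIP thus stood among the 5 most like genes of both. MEOX1, the closest to FOXC2, averaged 341 CPM at 630 to 690 min and 2.12 CPM at 30 to 90 min, and TCF15, another somite factor, 411 and 5.86 CPM. In the same contrast 7 of the 13 tested somite and dermomyotome markers rose and 1 fell, with a median log2 fold change of 2.39 and a summed level of 1444 to 1787 CPM at 630 to 690 min and 945 to 1143 CPM at 30 to 90 min. The neural crest list summed to 583 to 762 CPM at 630 to 690 min and 187 to 229 CPM at 30 to 90 min, with 3 of 11 tested genes higher and 2 lower, SOX10 at 8 counts and at 0, and DLX5 at 0 in both. Of its 13 genes, 12 had counts at the end and 11 at the start. The sclerotome list summed to 758 to 1116 CPM at 630 to 690 min and 238 to 296 CPM at 30 to 90 min, with 5 of 8 higher and none lower in edgeR, and PAX1 at 0 at the end. The other genes of this list had counts in both windows. The neural tube list summed to 2076 to 3477 CPM at 630 to 690 min and 1149 to 1962 CPM at 30 to 90 min, with 2 of 9 higher and 1 lower. The endothelium and blood list again went down, from 108 to 158 CPM at 30 to 90 min to 31.2 to 48.0 CPM at 630 to 690 min. None of its 7 tested genes was higher and 2 were lower. Genes shared between lists entered more than 1 of these sums. The part of these lists in the levels was not tested.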

How the data were processed

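Expected counts per gene, estimates with fractions, were deposited for 19084 genes in 12 daily and 46 course libraries made with LM-seq. The authors also deposited TPM values rescaled over the listed genes, per the file headers and the values. Reads were aligned with Bowtie 0.12.2, and builds hg19 and mm8 are listed, per the submitters' processing notes. No source used here gives the counting program, its strand setting or the use of the mouse build.

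Expected counts were rounded and tested in R 4.3.3 by edgeR 4.0.16, with TMM scaling, filterByExpr and quasi-likelihood F tests, and p-values were adjusted by Benjamini-Hochberg over all 12765 daily or 13653 course genes that passed. Calls needed an adjusted p under 0.05 and, except for tests of any change and of a rhythm, a log2 change of 1 or more. DESeq2 1.42.0, limma 3.58.1 on log2(TPM + 1) and log2(TPM + 0.1), other scalings, no filter, leaving out libraries and a replicate block were alternatives. Scripts were tested on simulated data.

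All 5 genes were named in every comparison, from each list up to 4 called genes, and the 5 most alike genes of each. The members, the lists and this rule were chosen with earlier results of these data known. A fold against a group at 0 is a bound from 3 counts over the group. With 1 to 3 counts, the ratio of pooled counts has an exact 95% interval. Both cover counting error only, because reads are not independent molecules. No 2 replicate libraries were close enough to be duplicates (chi-square per degree of freedom at least 8 in the daily series and 3.83 in the course; r across genes 0.875 to 0.962 and 0.917 to 0.976).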

Additional observations from a re-analysis of the deposited data

How the results depend on the processing

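Of 1691 values of single genes recomputed under alternatives over 55 results, 1637 kept their direction and side of the threshold, 9 lost the call, 31 gained one, and 14 changed sign. Refits of the course without a library kept the genes tested and the dispersion trend of all libraries. Of the 5 genes, 2 were called between Day2 and Day0 without the filter, in limma with either pseudocount and with the replicate block, and between Day2 and Day1 2 were called without the filter and 1 with only the 6 libraries of the 2 days. Between 120 to 180 and 30 to 90 min, limma called 2 with either pseudocount. The rhythm was called for 1 gene of the 5 without the filter and for 1 at 330 min. Over all genes, only the 6 libraries of the 2 days gave 1139 calls against 661 for Day1 from Day0 and 1008 against 1668 for Day3 from Day2. Rhythm calls were 249 in DESeq2, 644 without the filter, 1 in limma, 2 at 270 min and 615 at 330 min, against 18.

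Leaving out 1 library gave 435 to 826 (Day1 from Day0), 864 to 1834 (Day2 from Day1), 964 to 2042 (Day3 from Day2) and 1 to 155 (rhythm, 330 and 540 min replicate 2) calls over all genes, the lowest without Day1 replicate 1, Day1 replicate 2 and Day3 replicate 3. It gave 0 to 1, 0 to 1, 1 to 2 and 1 to 2 calls among the 5 for Day1 from Day0, Day2 from Day1, Day2 from Day0 and 120 to 180 from 30 to 90 min. Signs changed only for differences that were not called with all libraries. FOXD1 was at 0.24 for Day1 from Day0 and -0.012 for Day2 from Day1 in limma on log2(TPM + 0.1). With 1 library left out, Day1 from Day0 ran from -1.83 to 2.29 for FOXD1, from -0.30 to 5.11 for FOXC1 and from -0.53 to 3.14 for FOXD2. Day2 from Day0 ran from -2.18 to 3.32 for FOXD1 and from -3.65 to 5.57 for FOXC2, Day2 from Day1 from -1.51 to 2.21 for FOXD1, and 120 to 180 from 30 to 90 min from -0.21 to 1.73 for FOXD2. The cause was not tested.

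Replicate numbers did not pair the libraries. Deviations of same-numbered libraries correlated at -0.113 to 0.167 in 18 daily pairs, and the median was 0.000888 over 506 course pairs. The replicate block added the call of FOXC1 for Day2 from Day0 (adjusted p = 0.0234, edgeR) and changed no other call of the 5. On the TPM scale the median of all genes for Day3 from Day2 was 0.33 in limma against 0.08, and of the calls 87.5% against 69.1% were higher. The shares were 20.3% against 42.1% for Day2 from Day0, 15.4% against 30.5% for Day2 from Day1, 40.4% against 52.5% for Day1 from Day0, and 55.2% against 73.1% for 120 to 180 from 30 to 90 min. The called directions of the 5 genes did not flip. Levels near 3 counts limit FOXC2, FOXD1 and FOXD2 before Day3 and at the start of the course, and FOXD3 after Day0. The times at which genes rose above their starting levels, and the count ratios, were recomputed without each library after the data were seen.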
